A study of Homo sapiens with 3 samples.

Results

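Among the human mRNAs found with untemplated uridines while bound to DIS3L2, 86 genes carried more than 1 uridylated site, and these are described here. A site is a window of 50 nt of the genome, and the genes were chosen by counting the windows listed for each gene in the mRNA class: those with 2 or more were kept, after the histone genes, the zinc-finger genes and OAT, RPL12 and RPS12 had been set aside. The 86 genes held 181 windows, of 1136 windows and 1029 genes in the mRNA class and 1533 windows in all. A further 874 mRNA genes outside the sets left aside had 1 window each, and these single-window genes are used for comparison. The number of listed windows depends on read depth and on the share of uridylated reads, so both were used in the choice, and their levels are given as a description.

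The cells were HEK293, a human embryonic kidney line, overexpressing the D391N mutant of DIS3L2. By the study's methods this was a stable, inducible T-Rex line with a Flag-tagged and catalytically inactive protein. The RNAs it contacted were captured with CLIP, in which RNA is crosslinked to protein in living cells and precipitated with it, and 3 replicate libraries were sequenced. All 3 carry the same allele and form 1 group, and there was no control group.

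DIS3L2 is a cytoplasmic 3′ to 5′ exoribonuclease that acts without the exosome and prefers RNAs to which terminal uridylyltransferases have added a short oligo(U) tail. Its known targets include the precursors of let-7 miRNAs and faulty transcripts of non-coding RNA genes. On protein-coding genes, short RNAs can arise next to the transcription start, where RNA polymerase II pauses, while introns are normally removed by splicing as lariats that are debranched and degraded.

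For each window the table gives a count of uniquely mapped reads and a count of those with an untemplated stretch of T at their 3′ end, here called U+ reads. The U+ fraction is the second count divided by the first. The counts had been summed over the 3 libraries, so no value has a replicate SD, and every interval is a 95% interval (Wilson's for a fraction, Newcombe's for a difference) that covers counting error only, since PCR copies of a molecule are not independent. The windows of the 86 genes held 26654 of 2686158 unique reads, with 17 to 2844 in a window, and 16931 U+ reads, which were 15.6% of the U+ reads of the mRNA class on 15.9% of its windows.

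Most of the windows lay at gene starts, but 11 windows of 10 genes held the 3′ end of an intron, and each of these introns was short. The windows concerned were the 11 among the 44 that lay over 150 nt past the start of their listed transcript. The 30 nt around 10 of these intron ends are shown because the windows share this feature, although part of a stretch can lie outside its window. They run 5′ to 3′ on the gene's strand of GRCh37, with 26 nt of intron followed by 4 nt of exon, written as DNA, and the capitals mark the AG that ends the intron.
CIRBP intron 2, chr19:1271113-1271142, plus strand: actgcagacctctctcccctgcacAGtggt
EML3 intron 21, chr11:62370147-62370176, minus strand: caccgcaactcttccctccggcccAGgcgc
FASN intron 16, chr17:80046180-80046209, minus strand: gtgctgaggcctgtgccctcccgcAGacac
FBL intron 3, chr19:40330964-40330993, minus strand: acccctgctctgatcccctcacccAGgtgt
FGFR3 intron 4, chr4:1803321-1803350, plus strand: actcacccgcccgcgtcccggtgcAGctgc
FLNA intron 34, chrX:153582408-153582437, minus strand: ccacaaggcccttcttcctgcctcAGgaag
HES4 intron 2, chr1:934809-934838, minus strand: cctctcctcctgtgtcgctcccgcAGccgc
POLG intron 4, chr15:89872059-89872088, minus strand: ccatgtcccttgctctggttccccAGatct
POLG intron 17, chr15:89864240-89864269, minus strand: ttttctcactcctgcttgtcttccAGgctg
SAPCD2 intron 5, chr9:139959236-139959265, minus strand: ccttgaccaactgtgcacctgcccAGgagg

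All 11 introns began with GT and ended with AG. They were 75 nt (SAPCD2) to 112 nt (POLG intron 17) long with a median of 86 nt, while the 1113 introns of the transcripts of all 86 genes had a median of 1025 nt and 14.2% of them were 120 nt or shorter. The limit of 120 nt was set after these lengths had been seen. Of all windows of 50 nt laid over the transcripts of the 86 genes past the first 150 nt, 1.19% held an intron's 3′ end. Of the listed windows there, 11 of 44 did, or 25%. The laid windows covered whole transcripts, long introns included, whether or not any reads were found there. Both shares are therefore not on a comparable base, and the feature was picked after the listed windows had been seen. No enrichment was tested. The 5′ end of an intron lay in 1 of the 44, the DEAF1 window at chr11:691500-691549. Single-window genes had a like share, 36 of 137 windows or 26.3%, and 24 of those 36 introns were 120 nt or shorter, with a median of 98.5 nt.

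The reads of these windows ranged widely in their tails. SAPCD2, which acts in spindle orientation, had 20 U+ reads of 20 (100%, interval 83.9 to 100%), and its window has 3 near-identical copies elsewhere in the genome. FASN, the fatty acid synthase, had 176 of 180 (97.8%, interval 94.4 to 99.1%) and EML3, a microtubule-binding protein, 191 of 212 (90.1%, 85.3 to 93.4%). HES4, a transcriptional repressor, stood at 75% (51 of 68, interval 63.6 to 83.8%), the rRNA methyltransferase FBL at 74.3% (26 of 35, 57.9 to 85.8%), and the actin crosslinker FLNA at 63.4% (26 of 41, 48.1 to 76.4%). POLG, the catalytic subunit of the mitochondrial DNA polymerase, was the gene with windows at the ends of 2 introns, at 63.6% (28 of 44, interval 48.9 to 76.2%) for intron 4 and 44.4% (24 of 54, 32 to 57.6%) for intron 17. The cold-inducible RNA-binding protein CIRBP at 37.6% (197 of 524, interval 33.6 to 41.8%) and the receptor tyrosine kinase FGFR3 at 32.2% (137 of 425, 28 to 36.8%) had the lowest fractions and the most reads. To be listed, a window needed a high probability of a frequency above 0.25, for which a low fraction needs more reads. The choice of windows therefore bears on this pairing of low fraction and depth. The FASN interval lay above those of the 9 windows other than SAPCD2 and the FGFR3 interval below those of the 8 with 63.4% or more. The fraction thus differed among the listed intron ends by more than counting error. The median over the 11 windows was 74.3%, beside 73.8% over the 36 of single-window genes.

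The whole introns folded tightly in prediction. Their minimum free energy per nt (RNAfold, kcal/mol) was −0.46 in the median and −0.59 (HES4) to −0.37 (FLNA) in range, and −0.35 in the median of the 146 other introns of 60 to 120 nt in the transcripts of all 86 genes. The G and C content was 70.5% in the median of the 11 and 65.6% in the others. The energies were not matched for G and C content. In the predicted folds of the 11, 12 (CIRBP) to 30 (HES4) base pairs joined the first and the last part of the intron, split at its middle. Such pairs were not counted in the other introns, so the numbers have no comparison. The windows covered the last 6 nt (POLG intron 17) to 49 nt (EML3) of the intron and ran on into the exon in all 11. The table does not give the ends of reads, so where in the window the tails began is not known. The windows of FBL and FGFR3 also lay within 150 nt of the start of another annotated protein-coding transcript of the gene. Counting transcripts of any type, so did the window of CIRBP (midpoint 95 nt past a start) and those of POLG. The POLG midpoints lay at 119 nt (intron 4) and −70 nt (intron 17) from the nearest such start.

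**Figure D1:**
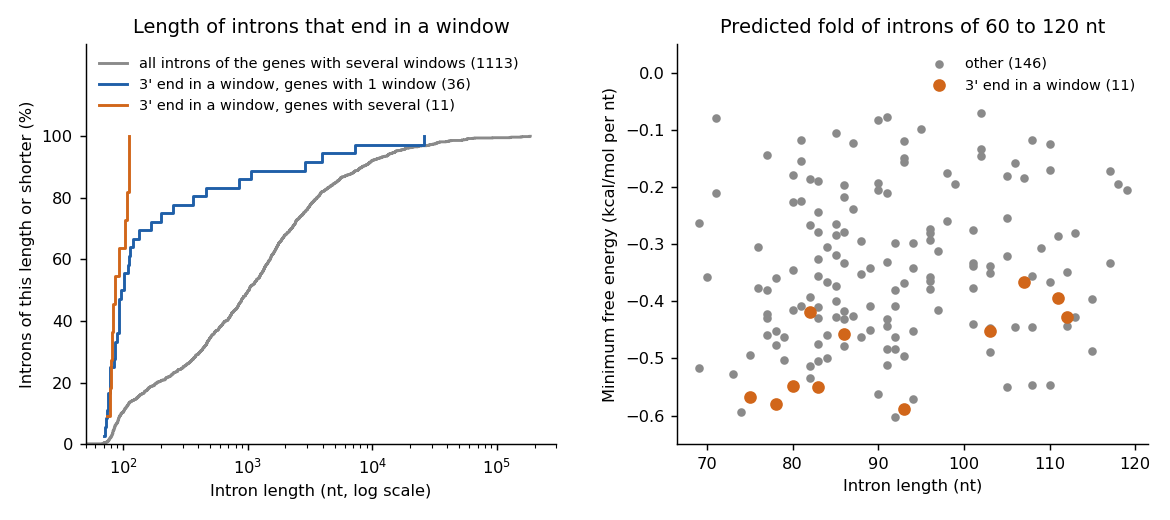
Left, the share (%) of introns up to a given length (nt, log scale) for all introns of the listed transcripts of the 86 genes, for introns whose 3′ end lies in a window of a single-window gene, and for the 11 of the genes with several windows, whose curve ends at 112 nt. Right, predicted minimum free energy per nt against length for introns of 60 to 120 nt in the transcripts of the 86 genes; the 11 introns with a window (orange) lie between −0.59 and −0.37, in the lower part of the 146 others (grey).

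By position, 138 of the 181 windows (76.2%) lay within 150 nt of the start of the listed transcript or of another protein-coding transcript and held no such intron end. The others were the 11 windows at intron ends, 12 windows of 9 genes in a 3′ untranslated region (UTR) and 20 elsewhere. Single-window genes had 755 of 873 placed windows (86.5%) at a start, 36 (4.12%) at an intron end, 32 (3.67%) in a 3′ UTR and 50 elsewhere. By the listed transcript alone, 130 of 181 windows (71.8%) lay within 150 nt of the start, and 716 of 873 (82.0%) in single-window genes. The median U+ fraction was 69.3% at starts, 74.3% at intron ends, 70.1% in 3′ UTRs and 73.9% elsewhere. The predicted folds differed more, with median energies of −20.8, −12.7, −6.65 and −16.1 kcal/mol per window and a median G and C content of 78%, 64%, 42% and 70%.

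**Figure D2:**
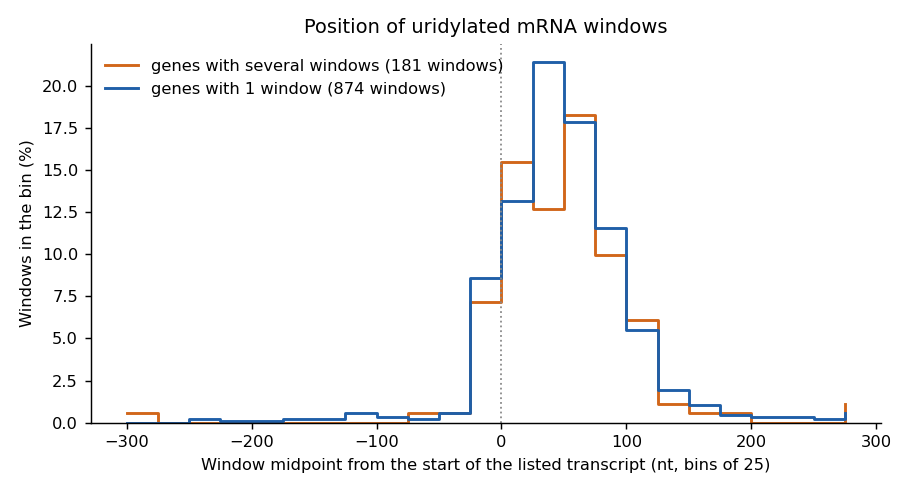
The distance of the window midpoint from the start of the listed transcript (nt, bins of 25) is plotted against the share of all windows of the set (%), for genes with several windows (orange) and with 1 (blue). Both sets peak within the first 100 nt past the start, with 18.2% of the member windows between 50 and 74 nt.

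Of the 86 genes, 59 had windows that all adjoined, with starts 50 nt apart, 23 had distant windows with starts 100 nt or more apart, and 4 had both. There were 78 genes with 2 windows, 7 with 3 and 1 with 4. The 67 pairs of adjoining windows came from 63 genes, and the 28 consecutive pairs of distant windows from 27. The median U+ fraction of all 181 windows was 69.4% (quartiles 57.6 and 78.3%), beside 71.0% for single-window genes, and the median window had 74 unique reads, beside 56.

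By role, 13 genes belonged to the ribosome and RNA processing, 13 to transcription and chromatin, 15 to signalling, 13 to metabolism and transport, 7 to the cytoskeleton and centrosome and 5 to the ubiquitin system. The median U+ fraction of their windows was 60.3, 65.4, 69.0, 70.1, 75.0 and 61.1%, and 75.9% in the remaining 20 genes. The ranges overlapped widely, with 29.4 to 91.4% for the ribosome and RNA processing and 44.4 to 100% in the remaining genes. Median depth differed too, at 99 and 61 unique reads in these groups. Roles were not counted among single-window genes, and differences between roles were not tested. Of the ribosomal protein genes with a window and a symbol that starts with RPL, RPS or RPLP and a number, 2 of 7 had several, RPL19 and RPLP1. The 7 leave out RPL12 and RPS12, which were set aside, and the single-window gene RPSA. Of the genes of uridylation and RNA decay 1 of 4 had several, the nonsense-mediated decay helicase UPF1, with windows at 70.9% (39 of 55) and 69.2% (72 of 104) in its 3′ UTR. Of the RNA-binding and processing factors 11 of 26 had several, beside 86 of 960 (8.96%) over all eligible mRNA genes, and the windows of the 26 had a median U+ fraction of 59.8%, beside 70.7% over all eligible genes. The 11 were CIRBP, CLASRP, FBL, HNRNPF, INTS5, PABPC1L, SF1, SLTM, SPEN, SRPK2 and TARBP1. The list was written with the members known, and all of the 11 but HNRNPF and INTS5 were put on it by name. Those 11 of 26 were thus partly fixed by how the list was written and cannot be set against the 8.96%. The 59.8% rests on the same list and is a description only. Deeper windows also had lower fractions, with a median of 63.6% in member windows with 100 or more unique reads. The depth of the windows of the 26 genes was not compared.

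Adjoining windows of a gene mostly had similar fractions. In 59 of the 67 pairs both windows lay at a start, and the midpoints of the upstream and downstream windows were 24 and 74 nt from the start in the median. The fractions differed by 6.25 percentage points in the median and by at most 10 points in 44 pairs. Upstream windows were higher in 40 pairs and downstream ones in 27, while the downstream window was deeper in 33 and the upstream one in 34. Across the pairs the fractions of both windows correlated with a Pearson's r of 0.70 and a Spearman's rank correlation of 0.71 (n = 67 pairs), as a description, since pairs share libraries and base composition. How reads were assigned to windows is not given in the sources used here, so a read that crosses the border may have been counted in both, and no test was made.

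The intervals of the adjoining windows lay apart in 6 pairs, 8.96%, beside 18.6% of the 86 adjoining pairs of every class. Those 86 include the 67 pairs described here, and in the other mRNA genes the intervals lay apart in 2 of 7 adjoining pairs (28.6%). The upstream window was higher in 5 of these 6, which were named after their values had been seen. It was higher in 40 of all 67 pairs. In the 7 pairs of the other mRNA genes the upstream window was higher in 2 and the downstream one in 5. CLASRP, a splicing regulator, had 32 U+ reads of 35 upstream (91.4%) and 116 of 203 downstream (57.1%). JTB went from 72.6% (61 of 84) to 44.7% (17 of 38), and the signalling adaptor SHB from 72.8% (150 of 206) to 46.8% (22 of 47). The plasma membrane calcium pump ATP2B1 had 63.9% (191 of 299) and then 46.8% (36 of 77). SDHAF1, an assembly factor of succinate dehydrogenase, went the other way, from 37.1% (13 of 35) to 64% (80 of 125). In CLASRP and SDHAF1 the downstream window had more reads, and in JTB, SHB and ATP2B1 the upstream one.

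MKNK2, a kinase that phosphorylates the initiation factor eIF4E, was the sixth, and its fraction fell along 3 adjoining windows. Its U+ reads were 948 of 1105 (85.8%, interval 83.6 to 87.7%), then 594 of 800 (74.2%, 71.1 to 77.2%) and then 47 of 74 (63.5%, 52.1 to 73.6%), with midpoints 19, 69 and 119 nt past the start. The intervals of the outer windows did not overlap.

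Other genes with 3 or more windows did not share that course. ARHGEF26, a guanine exchange factor, stood at 69.2% (27 of 39), 76.5% (52 of 68) and 69.9% (241 of 345), with overlapping intervals. The kinase PIM3 had 55.2% (16 of 29), 55.6% (25 of 45) and 75% (27 of 36), also overlapping. HES4 had 84.8% (312 of 368), 81.5% (75 of 92) and 95.7% (22 of 23) near its start and 75% at the end of its intron 2, and NFKBIZ, a nuclear regulator of NF-κB, 53.3% (32 of 60) and 54.1% (341 of 630) at its start and 42.7% (44 of 103) in a 3′ UTR. TCFL5, a bHLH transcription factor, had all 3 of its windows inside coding exons, at 51.4% (37 of 72) and 36.5% (35 of 96) in exon 2 and 80% (20 of 25) in exon 3. UBR4, a ubiquitin ligase with 106 exons, had 61.1% (22 of 36) at its start and 53.3% (16 of 30) and 76.1% (54 of 71) in its last exon. A lncRNA gene annotated on the same strand overlaps both windows in the last exon.

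**Figure D3:**
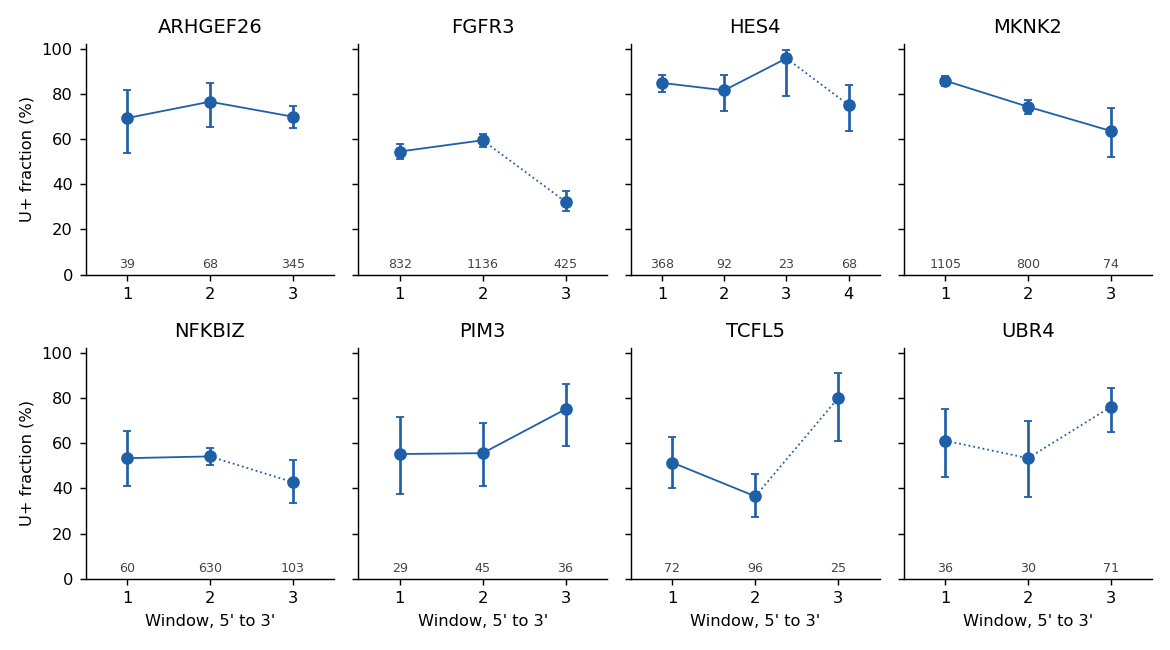
U+ fraction (%) of each window, from 5′ to 3′, of the 8 genes with 3 or more windows; bars are 95% Wilson intervals, solid lines join adjoining windows, dotted lines distant ones, and the small numbers are unique reads. MKNK2 falls from 85.8 to 63.5%, and the third FGFR3 window lies at 32.2%.

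The most U+ reads in a single adjoining window lay on RPLP1, a protein of the ribosomal stalk, with 58 of 155 (37.4%) and then 1242 of 2844 (43.7%). FGFR3 followed MKNK2 with 453 of 832 (54.4%) and 675 of 1136 (59.4%) at its start, and IMPDH1, of guanine nucleotide synthesis, had 576 of 806 (71.5%) and 401 of 568 (70.6%). Among pairs with at least 50 reads in both windows, the largest rises downstream were those of MRGBP, a subunit of the NuA4 acetyltransferase complex, from 46% (46 of 100) to 58.0% (91 of 157), and of PABPC1L, a poly(A)-binding protein, from 73.0% (54 of 74) to 83.3% (80 of 96). KLHL12 had 57.6 and 65.9%, and superoxide dismutase SOD1 57.6 and 65.1%. In the other direction lay TCFL5, TTC3 with 56.0% (155 of 277) and 42.9% (63 of 147), and CEP170B with 86.5% (64 of 74) and 74.1% (106 of 143). All these intervals overlapped. The interval of the difference still excluded 0 for FGFR3 (0.55 to 9.39 points), TTC3 (−22.7 to −3.10) and CEP170B (−22.2 to −0.77).

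The windows listed for SMAD4, the common mediator of TGF-β signalling, lay 62159 and 62109 nt upstream of its listed transcript, within the gene ELAC1 annotated on the same strand, at 44.7% (51 of 114) and 52.6% (70 of 133). In the other RNA-processing genes with adjoining windows near a start, the branch-point binding protein SF1 had 59.8 and 54.9%, SLTM 44.8 and 34.8%, HNRNPF 61.5 and 58.5%, INTS5 72.5 and 63.4%, and the SR protein kinase SRPK2 60.8 and 74.3%, again with overlapping intervals. Of these genes, only SLTM had an interval of the difference that excluded 0 (−19.3 to −0.56 points).

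Distant windows were compared to see whether separate sites of a gene carried the same share of U+ reads. They were 100 to 138850 nt apart, with a median of 5800 nt, and each pair was tested by a two-sided Fisher's exact test adjusted by Benjamini-Hochberg over the 40 distant pairs of every class. The test takes every pooled read as independent. Its p-values, here and below, therefore cover counting error only and not the spread between libraries, and PCR copies can make them too small. The fractions differed at an adjusted p under 0.05 in 12 of 28 pairs (42.9%), beside 47.5% of the 40. The share of calls was thus near that of the table, but the 28 pairs make up most of the 40. The upstream window was higher in 6 and the downstream one in 6 (background 25% and 22.5%). The median difference was 21.1 points in size, and upstream and downstream fractions had a Pearson's r of 0.04 and a Spearman's rank correlation of 0.02 (n = 28 pairs, as a description). At an unadjusted p under 0.05 by Fisher's exact test there were 19. The 4 pairs with starts 100 nt apart, just past the limit for adjoining windows, had differences of −57.9 points (SLC11A2), −34.0 (B3GALNT2), −5.05 (NENF) and 22.7 (UBR4).

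**Figure D4:**
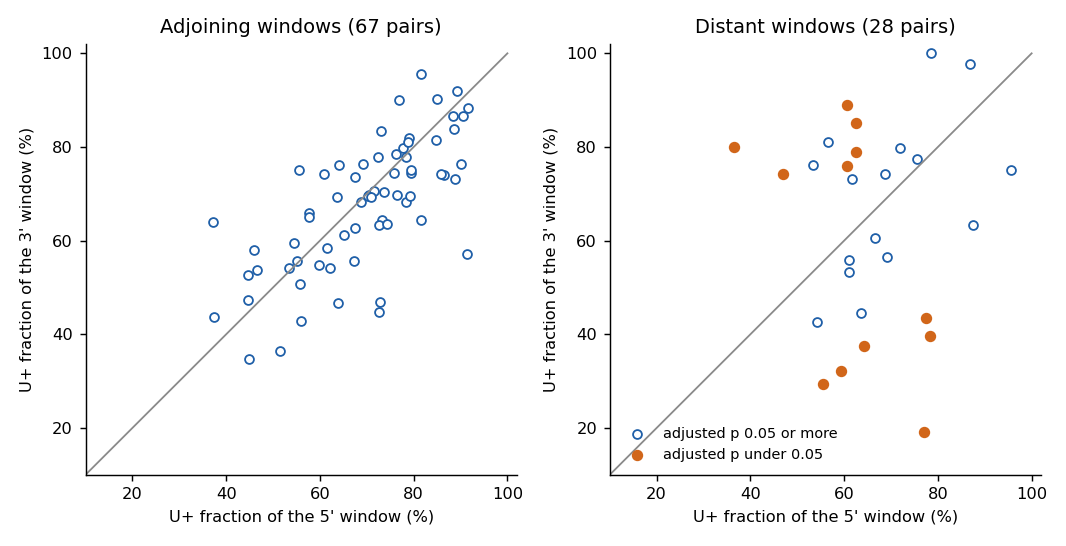
U+ fraction (%) of the upstream window against that of the downstream window for 67 adjoining pairs, which were not tested, and 28 distant pairs, of which 12 (filled) differed at an adjusted p under 0.05; the grey line marks equality. Adjoining pairs lie along the line and distant ones are scattered on both sides of it.

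Of the 28 distant pairs, 9 had a window at an intron end, and 4 of these were called, 2 in each direction. FGFR3 fell by 27.2 points from the start to the end of intron 4 (59.4 to 32.2%, interval of the difference −32.3 to −21.8, adjusted p = 1.07e-20 by Fisher's exact test). CIRBP went from 64.3% (36 of 56) at its start to 37.6%, with a difference of −26.7 points (−38.7 to −12.9, Fisher's exact test, adjusted p = 0.000628). A window of the lncRNA class, listed for CIRBP and wholly inside intron 2, adjoins the latter. FBL rose from 46.9% (23 of 49) at its start to 74.3%, by 27.3 points (6.02 to 44.9, Fisher's exact test, adjusted p = 0.0322). The differences of FLNA (−24.1 points), HES4 (−20.7), POLG (−19.2), FASN (10.8) and SAPCD2 (21.6) missed the threshold, with adjusted p-values of 0.0538, 0.0542, 0.103, 0.0538 and 0.0520 by Fisher's exact test.

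In 9 distant pairs the downstream window lay in a 3′ UTR, and 3 of these were called. RPL19, a protein of the large ribosomal subunit, fell by 26.2 points, from 55.6% (90 of 162) at its start to 29.4% (47 of 160, interval 22.9 to 36.8%) at a midpoint 49 nt before the transcript's end (adjusted p = 1.06e-05, Fisher's exact test). That window has 1 near-identical copy elsewhere in the genome. DGKE, a diacylglycerol kinase, rose by 28.3 points from 60.6% (143 of 236) to 88.9% (24 of 27), 34500 nt further on (10.3 to 37.9, adjusted p = 0.00782, Fisher's exact test), in a stretch that the gene TRIM25 overlaps on the opposite strand. In the iron transporter SLC11A2 both windows lay in the 3′ UTR with starts 100 nt apart, at 77.1% (37 of 48) and 19.2% (5 of 26, interval 8.51 to 37.9%), a fall of 57.9 points (interval −72.3 to −34.8, adjusted p = 1.06e-05, Fisher's exact test). The latter was the lowest fraction of all 181 windows. With the counts pooled and a uniform prior, the probability that more than a share of 0.25 of its reads were U+ was 0.299, and 0.905 for the RPL19 window near the transcript's end, where the authors had asked for 0.95 over separate libraries, and all other members passed 0.95.

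Of the 12 windows in 3′ UTRs, 7 had their midpoint within 150 nt of the end of the listed transcript. These included TRIM28, a corepressor of KRAB zinc-finger proteins, at 77.5% (141 of 182) 8 nt before the end, SPEN, a transcriptional repressor, at 79.8% (289 of 362) 27 nt before it, and the guanine exchange factor NET1 at 60.6% (20 of 33) 52 nt before it. For these genes the upstream window did not differ detectably at this depth: TRIM28 had 75.6% in exon 1 (difference 1.89 points, interval −8.37 to 13.3), SPEN 72% (7.83, −6.58 to 27.8) and NET1 66.7% (−6.06, −27.2 to 15.4).

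In 5 distant pairs both windows lay at annotated starts, and 3 were called. B3GALNT2, a glycosyltransferase, fell from 77.5% (31 of 40) at its start to 43.5% (27 of 62) 100 nt further on, by 34.0 points (−49.4 to −14.5, adjusted p = 0.00299, Fisher's exact test). NRG2, a neuregulin, rose by 16.5 points between the starts of transcripts 138850 nt apart, from 62.5% (172 of 275) to 79.0% (143 of 181), the farthest pair (7.93 to 24.4, adjusted p = 0.000689, Fisher's exact test). NDE1, a dynein regulator, rose by 15.3 points from 60.7% (205 of 338) to 75.9% (60 of 79; 3.66 to 25, adjusted p = 0.0312, Fisher's exact test). The upstream NDE1 window adjoins a window of the miRNA class listed for mir-484, with 1666 U+ reads of 2386 (69.8%, interval 68.0 to 71.6%). NENF, at 61.0% (50 of 82) and 55.9% (118 of 211), and DPY19L3, at 61.6% (45 of 73) and 73.2% (30 of 41), had differences whose intervals held 0.

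The remaining calls were between coding exons. TCFL5 rose by 43.5 points from exon 2 to exon 3 (22 to 57.8, adjusted p = 0.000485, Fisher's exact test), and DEAF1, a transcription factor, fell by 38.7 points from 78.3% (36 of 46) in exon 2 to 39.5% (17 of 43) in exon 3 (−55 to −18.4, adjusted p = 0.000811, Fisher's exact test). TARBP1, a tRNA methyltransferase, had 56.5% (13 of 23) and 81.0% (64 of 79) 300 nt further on and missed the threshold (adjusted p = 0.0520, Fisher's exact test). In 22 of the 28 distant pairs the downstream window had the less stable predicted fold, with a median of −11.2 against −18.8 kcal/mol, and its median G and C content was 61% against 75%.

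**Figure D5:**
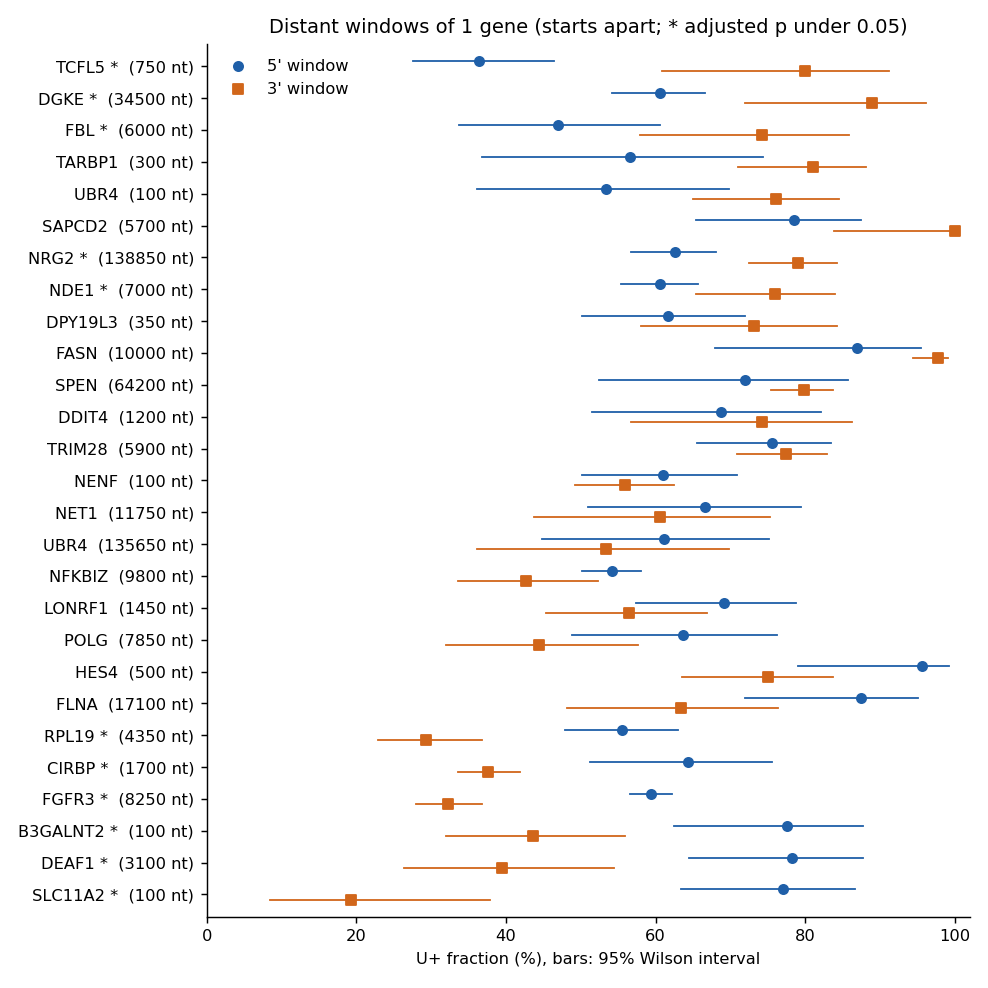
U+ fraction (%) of the upstream (circles) and downstream (squares) window of 27 of the 28 distant pairs, with 95% Wilson intervals, ordered by the difference; names carry the distance between the starts (nt) and an asterisk where the adjusted p was under 0.05. SLC11A2 falls by 57.9 points and TCFL5 rises by 43.5.

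GGG on the gene's strand was present in 68.0% of the member windows and 71.1% of all mRNA windows. TTTT was searched on the gene's strand, from the start of the window to 50 nt beyond its end, and was present in 5.52% of the members, 8.58% of windows of single-window genes and 11.5% of all mRNA windows. The window of SPEN near its end and the lower window of SLC11A2 were among those with TTTT. So were the exon 3 window of TCFL5 and the 3′ UTR window of DGKE, the higher windows of called rises of 43.5 and 28.3 points. Both windows of UPF1 and the downstream window of CLASRP had it too. Whether such genomic T runs bear on the U+ fraction was not tested. No member had a listed window on the opposite strand within 1000 nt, although 13 windows of 7 genes overlapped a gene annotated on that strand. Windows of INTS5, JTB, PILRB, SMAD4 and UBR4 overlapped another gene annotated on the same strand, so their reads cannot be assigned to 1 gene.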

How the data were processed

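The data are 3 replicate CLIP libraries from HEK293 cells with DIS3L2 D391N. The authors mapped reads to GRCh37/hg19 with Segemehl (Subread is also named in the submitters' notes), trimmed 3′ T runs from unmapped reads, mapped them again and called a read uridylated if it ended in at least 4 untemplated T. They kept 50 nt windows with at least 20 reads and a posterior of at least 0.95, multiplied over libraries, for a frequency above 0.25. The deposited table holds raw counts of unique and uridylated reads, summed over the 3 libraries and not scaled, so windows of high U+ fraction are favoured and replicate spread is unknown. Member windows had 17 to 2844 unique reads, and the smallest window of the whole table had 7. Some listed counts thus lie below the stated minimum of 20, and the sources used here do not say why.

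Pairs of consecutive windows of a gene were compared by Fisher's exact test in scipy 1.17.1, adjusted by Benjamini-Hochberg. The test was tried on simulated counts of independent reads at the real depths. Such counts hold neither PCR copies nor spread between libraries, so the trial does not cover these. Intervals of single fractions are Wilson's and those of differences Newcombe's. Positions and sequences were read from GRCh37 with the annotation of GENCODE 44 lifted to that build, by the listed transcript for 153 windows and the gene's canonical one for 28; midpoints were used, and coordinates were read as 1-based. Folds are from RNAfold 2.7.2, and copies (at least 45 nt, at most 2 differences) from blastn 2.17.0.

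Members, lists and tests were chosen with earlier results of these data and the paper known. The rule for named genes took genes with 3 or more windows, called distant pairs, the deepest and most different adjoining pairs, the farthest and nearest distant pairs, the extremes, list members and overlaps with other genes. Windows at intron ends, their limits and the 6 adjoining pairs with separate intervals were picked after their values had been seen. The values of 1 gene are not reported here by name, though it is in the counts.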

Additional observations from a re-analysis of the deposited data

Results flagged for a closer look

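CIRBP has a further window in a class that the comparisons did not use. It is listed as lncRNA, lies at chr19:1271050-1271099, wholly inside the same intron 2 (chr19:1271036-1271138) and directly upstream of the CIRBP window at the intron's 3′ end, and held 67 U+ reads of 203 (33.0%, 95% Wilson interval 26.9 to 39.7%), above the 3 counts that a count of 0 allows. The adjoining window had 37.6% (197 of 524, interval 33.6 to 41.8%), so the intervals overlap.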

How the results depend on the processing

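No paired analysis was possible because the table holds counts pooled over the 3 replicates, and for the same reason no replicate could be left out. Of 28 distant pairs, 12 were called. Requiring 50 unique reads in both windows left 9 pairs with 5 called, 3 with the upstream and 2 with the downstream window higher. A chi-square test in place of Fisher's exact test called 19, of which 10 had the downstream window higher. At an adjusted threshold of 0.01, 9 were called, 3 of them with the downstream window higher, and the calls lost included FBL (27.3 points) and NDE1 (15.3). Under the other alternatives for these counts, 10 to 12 were called. The share of windows near a start was 71.8% and came to 80.1% by the nearest start of any transcript. With 100 unique reads or more, the median U+ fraction fell to 63.6% (62.1% in single-window genes) and the median depth was 185; with the deepest window per gene the depth was 120.5. With 25 nt added on either side, the median predicted energy per nt was −0.47 in place of −0.38. The counts by arrangement, the share of adjoining pairs with the upstream window higher (59.7 to 60.6%) and the 11 windows at intron ends kept their values within the limits set. Leaving out pairs with near-identical copies, chosen after seeing the data, gave 11 calls; reading coordinates as 0-based or asking for 500 nt past the start, also chosen afterwards for intron ends, left 11 windows. In single windows of 20 to 50 reads, depth limits what can be told apart.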
